A study of Mus musculus with 50 samples.

Results

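T cell receptor variable genes were examined in RNA-seq libraries from mouse lymph nodes. A gene counted as a member if its name starts with Trav (alpha chain), Trbv (beta), Trdv (delta) or Trgv (gamma, also written Tcrg-V) and its estimated counts summed to 10 or more over all libraries. Of 178 such entries among 56600 genes in the table, 149 were members: 113 alpha, 24 beta, 7 gamma and 5 delta. The lowest summed counts inside the minimum were 14.0 for Trav20, 15.2 for Trgv3 and 15.9 for Trav11n, and the highest outside it were 9.0 for Trav23 and 7.92 for Trav15d-3. Together the members held 77706 estimated counts, of which 47672 were beta, 27905 alpha, 1363 gamma and 766 delta.

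A T cell receptor chain begins as a choice. During development a variable gene is cut and joined to a joining segment, with a diversity segment between them in beta and delta chains, and the joined exon is then spliced to a constant gene, so that each mature T cell transcribes mainly the variable genes it has joined. Most T cells in lymph nodes carry alpha and beta chains and read peptides on MHC molecules, and a minority carry gamma and delta chains, some of which mark cells of particular tissues. In a bulk library the level of a variable gene therefore adds up over the cells that chose it, and fewer cells using it cannot be told apart from less RNA of it per cell.

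The mice were C57BL/6J by the protocol and C57B6 by the genotype label, and all were killed on postnatal day 56. Their dams had been put, 3 weeks before breeding was set up, on a vitamin A deficient diet (TD.86143) or on the matched control diet with vitamin A restored at 20 IU/g (TD.91280), called sufficient here. The age of the dams is given as 7 to 8 weeks in all groups. The offspring came from litters after the first. Under each diet 5 libraries were made from duodenal, jejunal, ileal, colonic and inguinal nodes, which gives 10 groups and 50 libraries. Of the columns deposited for these libraries, 25 are named as control and the other 25 were taken as the deficient diet, so every deficient value rests on that assignment. Those other 25 all carry the mark 3rd, which no control column carries and whose meaning is not given. Whatever it stands for cannot be told apart from the diet. The first 4 kinds of node drain the gut, and the inguinal node drains skin. All 25 deficient libraries and 10 of the sufficient ones came from females, and the other 15 sufficient libraries came from males. Nothing in the labels ties the nodes to individual mice or litters, so p-values measure the spread between these libraries. If libraries of different nodes share a mouse, p-values of the diet comparison over the mean of the nodes may be too small.

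The estimated counts per library ran from 5335369 to 8904722, with a median of 7640371, and no pair of libraries held identical values. Levels below are CPM (counts scaled to a common library size) after scaling by the trimmed mean of M values (TMM). Levels of different genes are set side by side only per kilobase of exon, and a gene's share of its class on that scale is called its use. In 10 deficient libraries the predicted gene Gm19220 took under 3% of counts, and in 5 duodenal libraries, 2 of them on the sufficient diet, pancreatic genes took over 1%. A low-count filter kept 70 members for testing: 47 alpha, 19 beta, 3 gamma (Trgv1, Trgv2 and Trgv4) and 1 delta (Trdv5). The other 79 members were too low to test and are described by their counts.

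In GENCODE M21 (GRCm38) the alpha members lie on chromosome 14 between 52427928 and 53876752, followed by the delta members between 53881612 and 54149294. Beta members lie on chromosome 6 between 40891229 and 41558452, and gamma members on chromosome 13 between 19178024 and 19340454. All 149 members were found there by Ensembl identifier, 142 annotated as V genes and 7 as V pseudogenes. A short stretch of sequence shows how alike neighbouring members can be, which sets how far their estimates can be separated. The last 60 coding bases of each gene in GENCODE M21 are shown 5′ to 3′ for the Trbv13 genes and Trbv14, on which the node comparison turns. The capitals mark the codon of the conserved cysteine that opens the antigen-binding loop formed at the junction.
Trbv13-1: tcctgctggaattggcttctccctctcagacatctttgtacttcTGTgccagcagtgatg
Trbv13-2: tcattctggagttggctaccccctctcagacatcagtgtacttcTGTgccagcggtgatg
Trbv13-3: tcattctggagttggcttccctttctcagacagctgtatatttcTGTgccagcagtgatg
Trbv14: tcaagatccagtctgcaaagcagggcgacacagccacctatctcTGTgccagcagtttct

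The Trbv13 genes are 85.3% to 90.6% identical over their coding sequence, so their reads can mostly be told apart. Gamma genes are closer. Trgv1 and Trgv3 end in the same 60 bases, Trgv1 and Trgv2 are 94.9% identical over the coding sequence, and Trgv4, with 55.6% identity to Trgv2, stands apart. The split of counts among Trgv1, Trgv2 and Trgv3 is therefore uncertain.
Trgv1: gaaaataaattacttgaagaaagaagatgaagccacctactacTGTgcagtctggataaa
Trgv2: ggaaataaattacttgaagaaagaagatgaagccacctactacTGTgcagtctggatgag
Trgv3: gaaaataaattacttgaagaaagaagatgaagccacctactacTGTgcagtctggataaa
Trgv4: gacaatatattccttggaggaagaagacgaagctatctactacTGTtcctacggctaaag

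The alpha locus holds duplicated blocks, whose genes carry a d or an n after the family number. In 15 pairs of alpha members, such as Trav14d-1 and Trav14n-1, the estimated counts were equal in all 50 libraries, so these 30 members carry 15 independent measurements. Numbers of members, their signs and their medians below count both copies of such a pair where tested, so alpha signs are not all independent. In 3 other pairs, singled out after their values were seen, no library gave 1 count or more to both copies. Trav7-2 held the counts in 36 libraries and Trav7d-2 in the other 14, at 0 to 24.4 and 0.0120 to 24.1 counts. Their coding sequences are 99.7% identical, and their ends are shown because the counts of the pair can be read only as a sum.
Trav7-2: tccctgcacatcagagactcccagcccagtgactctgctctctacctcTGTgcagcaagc
Trav7d-2: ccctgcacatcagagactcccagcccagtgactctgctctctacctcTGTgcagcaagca

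The sum of the pair was 1.75 ± 0.61 CPM (SD, n = 25) on the sufficient diet and 1.81 ± 0.54 CPM (SD, n = 25) on the deficient diet. Taken alone, Trav7d-2 gave fitted differences between diets as large as 7.16 ± 2.40 (SE, log2) in inguinal nodes, with an adjusted p of 0.20 (edgeR). The other pairs of this kind were Trav12n-3 with Trav12d-3 and Trav7n-6 with Trav7d-6, each with equal coding sequences. No difference of a single copy in these pairs is read as a result.

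The summed levels of each class gave the first view of the nodes. On the sufficient diet the beta members summed to 160 ± 16 CPM (SD, n = 5) in inguinal nodes, from 145 to 181, and to 115 ± 14 CPM (SD, n = 20) in the gut-draining nodes, from 79.1 to 132. These groups did not overlap. On the deficient diet the same sums were 127 ± 16 (SD, n = 5) and 127 ± 14 CPM (SD, n = 20), and the groups overlapped throughout. Alpha members followed a similar order, with 85.5 ± 12.2 CPM in sufficient inguinal nodes and 63.8 ± 10.3 CPM in sufficient gut-draining nodes, and 74.0 ± 10.6 against 79.0 ± 8.7 CPM on the deficient diet (SD, n = 5 and 20). The lowest group means were those of sufficient ileal nodes, 99.8 ± 13.4 CPM for beta and 52.1 ± 9.8 CPM for alpha (SD, n = 5). No test was made of a summed level.

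**Figure D1:**
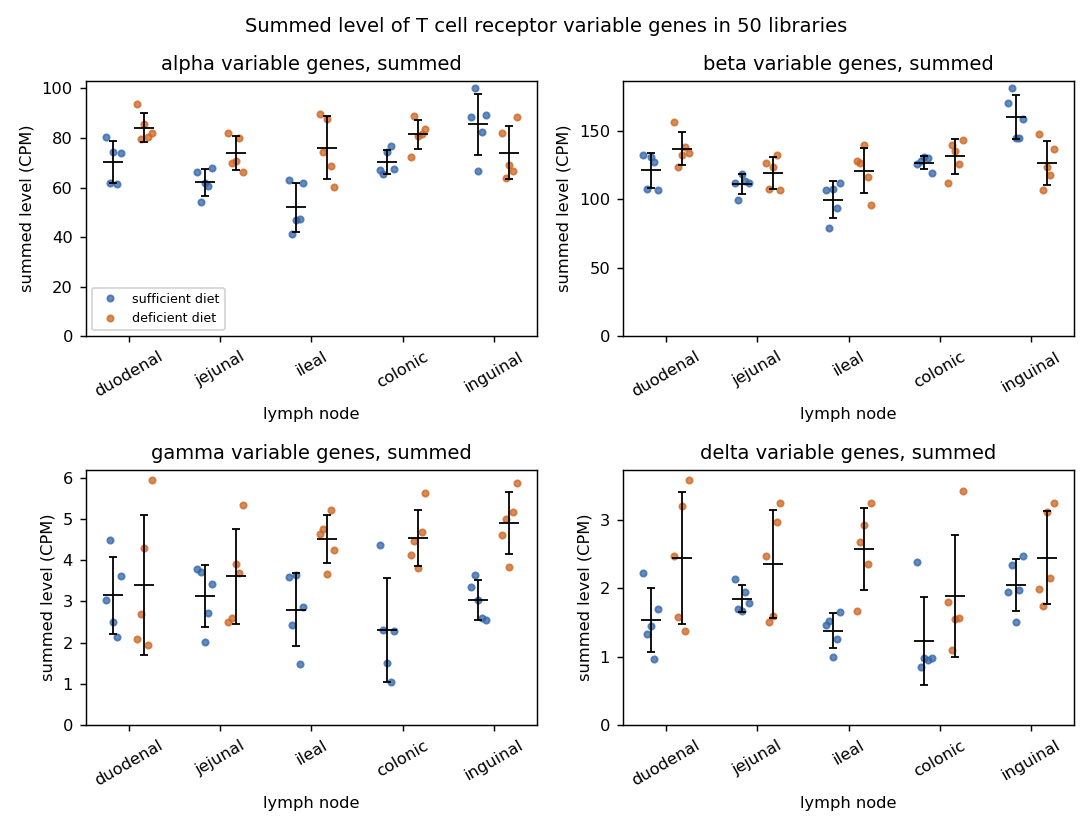
Summed level (CPM) of the alpha, beta, gamma and delta variable genes in each library, by lymph node and diet; points are libraries, bars the mean and SD of 5. Beta sums of sufficient inguinal nodes (145 to 181 CPM) lie above all 20 sufficient gut-draining libraries (79.1 to 132 CPM), and no such gap is seen on the deficient diet.

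The first contrast set the gut-draining against the inguinal nodes of the same diet. On the sufficient diet 17 of the 70 tested members were lower in gut-draining nodes and 0 were higher at an adjusted p under 0.05 (edgeR quasi-likelihood test, Benjamini-Hochberg over 18387 genes), 13 of 19 beta members and 4 of 47 alpha members. Of all genes tested, 7.22% were lower in this comparison and 16.9% changed in either direction. The median log2 difference was -0.42 over the 70 members, -0.49 over the beta members and -0.01 over all genes. All 19 beta members had a negative log2 difference at this scaling (14 of 19 when scaled to the CD3 genes).

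Trbv13-2, the beta gene with the highest level per kilobase, led the list by its adjusted p. Its level was 16.5, 17.5, 18.0, 18.4 and 21.5 CPM in the sufficient inguinal libraries, and from 8.27 to 17.2 CPM with a median of 12.6 in the 20 gut-draining libraries. Only the lowest inguinal library fell within the gut-draining range. Trbv13-2 fell by 0.58 ± 0.11 on the log2 scale (SE, adjusted p = 0.00018, edgeR).

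Trbv14 showed the largest beta difference. The inguinal libraries held 4.70, 5.78, 6.04, 7.25 and 7.28 CPM of it and the gut-draining libraries 1.65 to 5.44 CPM with a median of 3.48, so that 4 of the 5 inguinal libraries lay above every gut-draining one. Trbv14 fell by 0.82 ± 0.19 (SE, adjusted p = 0.00136, edgeR). Of the other beta members named by size, Trbv17, Trbv29, Trbv16 and Trbv13-1 fell by 0.73, 0.65, 0.64 and 0.63, with standard errors of 0.13 to 0.20. Trbv13-3 fell by 0.55 ± 0.14 and Trbv1 by 0.40 ± 0.13, with adjusted p of 0.00531 and 0.0275 (edgeR). Trbv19 fell by 0.34 ± 0.12 (SE, adjusted p = 0.0461, edgeR), the smallest of the 13. Trbv31, a beta gene that lies downstream of the constant genes and joins by inversion, had a difference of -0.30 that did not pass the test.

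The 4 alpha members below the threshold were Trav16n, Trav9-2, Trav6-5 and Trav12-2, which fell by 0.90, 0.85, 0.79 and 0.67 with standard errors of 0.24 to 0.32. Each has a close copy, so its separate estimate is uncertain. Coding identity was 97.7% for Trav16n with Trav16 and 98.5% for Trav9-2 with Trav9d-2. It was 95.9% for Trav6-5 with Trav6d-5 and for Trav12-2 with Trav12d-2. Trav9-2 was at 1.07, 1.43, 3.60, 3.77 and 4.01 CPM in the inguinal libraries and at 0.293 to 3.05 CPM in the gut-draining ones, so 2 inguinal libraries lay inside the gut-draining range. Trav6-5 was at 1.45, 1.66, 1.80, 1.86 and 2.02 CPM in inguinal libraries, against 0.208 to 2.31 CPM with a median of 1.04. Every inguinal library of Trav6-5 was inside the range of the gut-draining libraries, although all 5 were above their median. The 4 calls depended on single choices. Over 23 alternatives Trav9-2 was called in 17, Trav6-5 in 13, Trav16n in 8 and Trav12-2 in 7, and in females alone the difference of Trav9-2 was -0.18 (adjusted p = 0.844, edgeR). Without the 10 libraries low in Gm19220, 13 members were lower. Trbv19, Trav16n, Trav6-5 and Trav12-2 then missed the threshold, with adjusted p of 0.0695, 0.0691, 0.0620 and 0.0602 (edgeR).

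Of the constant genes, Trac and Trbc2 passed the test. Trac, the alpha constant gene, fell by 0.36 ± 0.08 and Trbc2, a beta constant gene, by 0.43 ± 0.09 (SE, adjusted p = 0.000532 and 0.000589, edgeR), and Trbc1 differed by -0.25 ± 0.14, short of the threshold (adjusted p = 0.242, edgeR). Trdc, Trgc1, Trgc2 and Trgc4, the delta and gamma constant genes tested, did not pass either (adjusted p = 0.586, 0.354, 0.784 and 0.0994, edgeR). Of the CD3 chains that carry the receptor signal, Cd3e, Cd3g and Cd247 fell by 0.43, 0.48 and 0.30, and Cd3d differed by -0.21 without passing the test. In all, 5 of 11 tested genes of the receptor complex list were lower and 0 higher, and 8 of 14 genes of the signalling list were lower and 1 higher. Of the 3 coreceptor genes (Cd4, Cd8a and Cd8b1) 2 were lower and 0 higher. When libraries were scaled to the summed counts of the 4 CD3 chains instead, 2 members stayed past the threshold, Trbv14 at -0.47 and Trbv16 at -0.28, and the median over members became -0.06. That scaling moved the median of all genes to 0.34. A change of scaling shifts all genes of a comparison nearly alike, so the gap between the members' median and that of all genes tests nothing here. Under the CD3 scaling 14 of 19 beta members stayed negative and 5 turned positive, among them Trbv19, whose called difference became 0.01.

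Markers of other cells also differed between these nodes on the sufficient diet. All 10 B cell genes tested were lower in gut-draining nodes, with a summed level of 2342 to 4014 CPM there and 3530 to 4569 CPM in inguinal nodes. Of 7 plasma cell genes 4 were higher, at 1376 to 5459 against 187 to 435 CPM, and all 12 pancreatic genes were higher, at 7.40 to 382972 against 8.08 to 244 CPM. Of 8 stromal genes 4 were higher and 2 lower, and of 7 genes of natural killer and innate lymphoid cells 3 were lower. Of 8 myeloid genes 3 were higher and 1 lower, and of 6 adipose genes 3 were higher and 1 lower. Of 9 tested marker genes of gamma delta T cells 1 was higher and 4 were lower. Their part in the result was not tested. Without the 5 libraries above 1% pancreatic counts 14 members were lower. The count was 10, 9 or 11 without sufficient number 1, 2 or 5, and 7 in females alone.

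**Figure D2:**
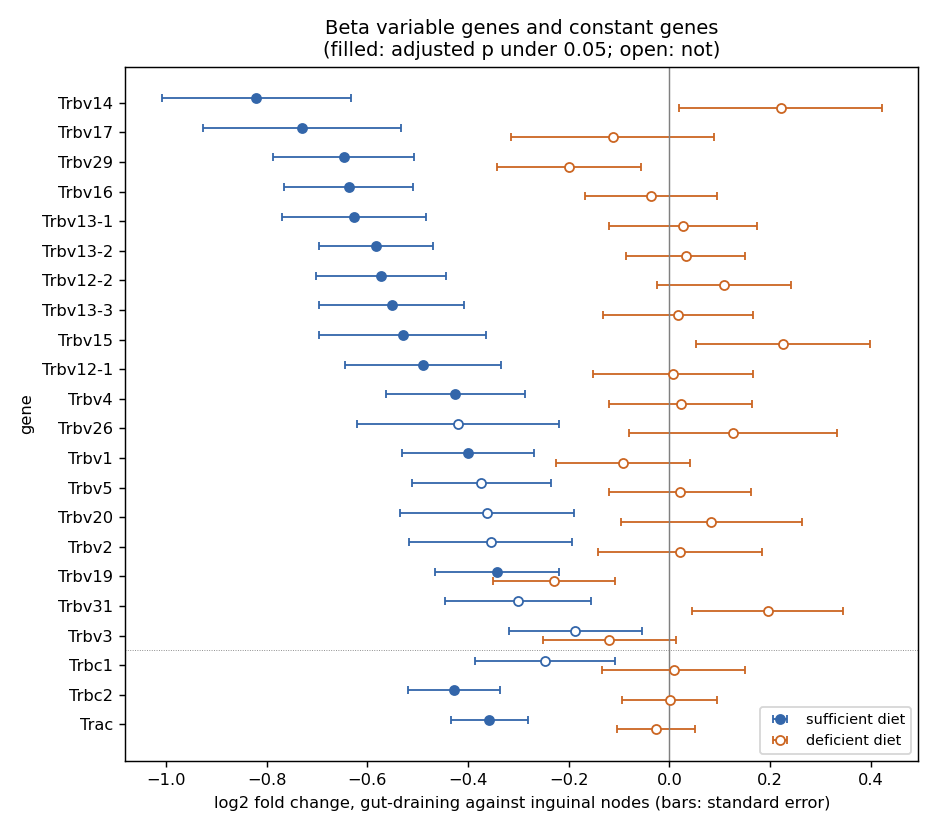
Log2 fold change (gut-draining against inguinal nodes) with its standard error for 19 beta variable genes, Trbc1, Trbc2 and Trac on each diet; filled points passed an adjusted p of 0.05. On the sufficient diet all 19 beta points are below 0 and 13 are filled (scaled to the CD3 chains, 5 of the 19 turn positive and 2 members pass); on the deficient diet no point is filled.

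On the deficient diet 0 of 70 members passed in the same comparison (edgeR), with 3 at an unadjusted p under 0.05 and a lowest adjusted p of 0.0747, where 5.71% of all genes changed. The median log2 difference was 0.02 over the members and 13 of 19 beta members had a positive sign (10 of 19 when scaled to the CD3 chains). DESeq2 also called 0, and limma-voom called 1, the single copy Trav7d-2. Trbv13-2 was at 10, 11.3, 14.0, 14.4 and 16.4 CPM in deficient inguinal libraries and at 8.64 to 16.9 CPM in the gut-draining ones, and the groups overlapped fully. Of the B cell list, 8 of 10 genes were lower in gut-draining nodes on this diet too.

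The difference between diets in this node contrast was tested as an interaction. With edgeR 0 of 70 members passed, 24 had an unadjusted p under 0.05, and the lowest adjusted p were 0.0570 for Trbv14 and 0.0583 for Trbv13-2, where 0.919% of all genes changed. All 19 beta members and 63 of the 70 members had a positive interaction, with a median of 0.52 log2 units over members and -0.002 over all genes. DESeq2 called 4 members (Trbv13-2, Trbv14, Trbv12-2 and Trav16n) and limma-voom 2 (Trbv14 and Trbv12-2), which were named here after their values were seen. Scaled to the CD3 chains, which moved the median of all genes to -0.37, 16 of 19 beta members stayed positive, the members' median was 0.17 and 1 member, Trbv14, passed. Among the reference genes Cd3e passed, with an interaction of 0.50 ± 0.13 (SE, adjusted p = 0.0335, edgeR), and Trac and Trbc2 did not.

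Trbv13-2 held 12.3% ± 1.3 of the beta level per kilobase (SD, n = 50), followed by Trbv16 with 7.50%, Trbv1 with 7.40%, Trbv13-1 with 7.21%, Trbv13-3 with 6.08% and Trbv3 with 5.99%. Trbv13-2 stood apart from the others by more than their SDs of 0.87 to 1.5, and neighbours among the others did not differ beyond that spread. The group means of Trbv13-2 use ran from 11.6% in deficient ileal to 13.9% in sufficient duodenal nodes, against a median SD within groups of 0.96. Trbv19 and Trbv31 stood at 3.49% and 4.62%. At the low end Trbv23, Trbv24, Trbv30, Trbv22 and Trbv21 each held under 0.5% and were not tested. The effective number of beta genes, the exponential of the Shannon entropy of use, was 17.8 ± 0.5 (SD, n = 50) and lay between 16.7 and 18.9 in every library.

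**Figure D3:**
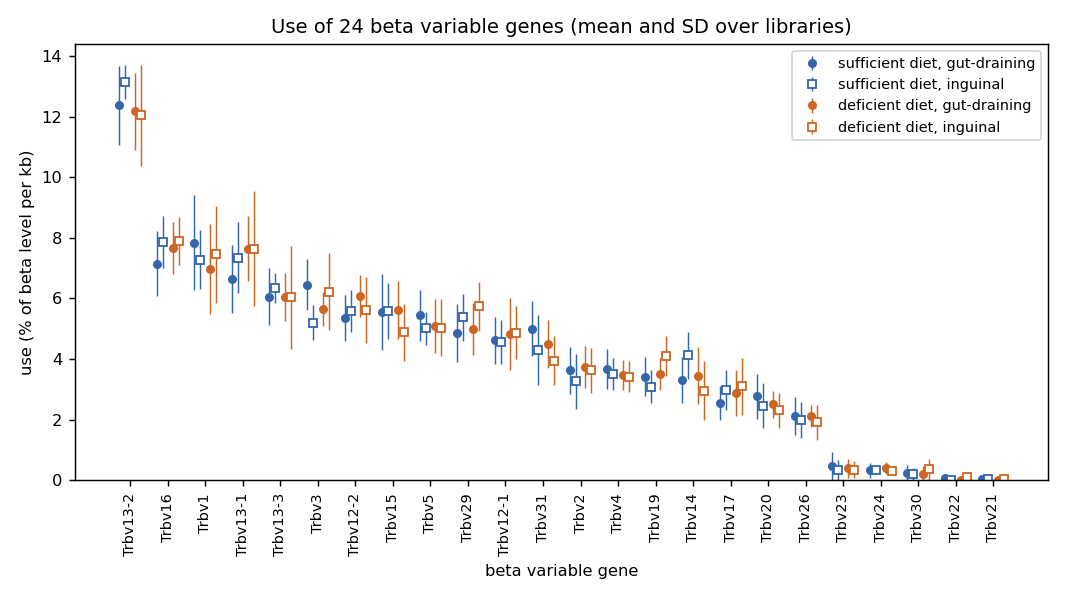
Use of each of 24 beta variable genes (percent of the summed beta level per kilobase) in gut-draining and inguinal nodes on each diet; symbols are means and bars SDs over 20 or 5 libraries. Trbv13-2 leads at about 12.3% in all libraries together, and the 4 sets of symbols overlap within their SDs for most genes.

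Alpha use was spread more thinly. Trav3-3 led with 2.48% ± 0.78 of the alpha level per kilobase (SD, n = 50), and Trav9-1, Trav4-4-dv10, Trav13-1, Trav14d-1 and Trav14n-1 followed with 2.31%, 2.30%, 2.27%, 2.13% and 2.13%, all within 1 SD of each other. The effective number was 72.5 ± 4.7 genes (SD, n = 50), from 56.2 to 78.7, with equal-count copies counted separately. By order along the locus, the 28 members farthest from the joining segments held 17.1% ± 2.8 of the level and the following sets of 28, 28 and 29 members held 18.8% ± 2.0, 31.1% ± 2.5 and 33.0% ± 2.6 (SD, n = 50). The 35 d copies held 25.5% and the 30 n copies 23.5% of it, and the other 48 members 51.0%. Where copies have equal or nearly equal sequences the estimation divides their reads between them, so the shares of d and n copies, and of locus sets that hold such copies, are partly set by that division.

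**Figure D4:**
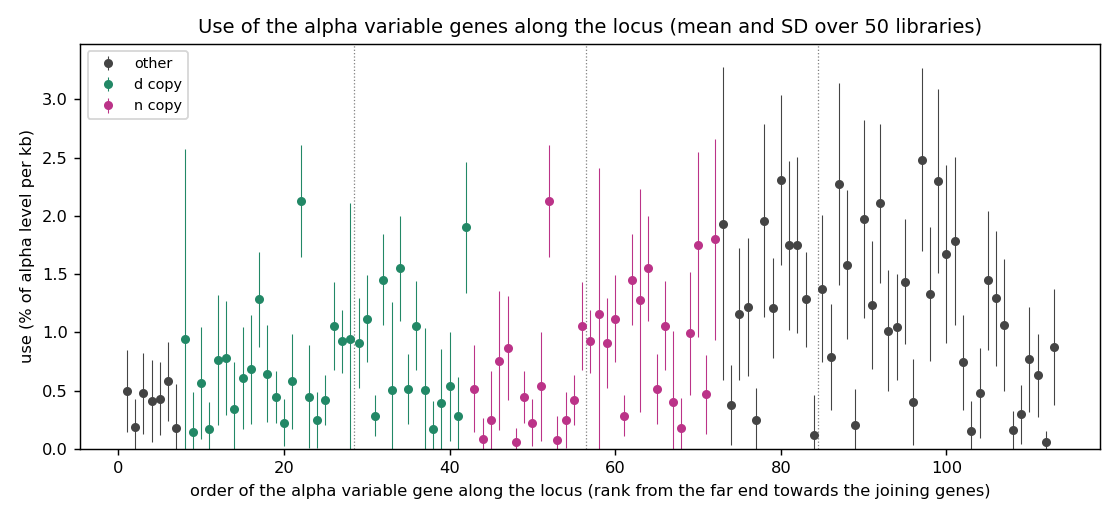
Use of each of 113 alpha variable genes (percent of the summed alpha level per kilobase) by their order along the locus, from the end far from the joining segments; points are means and bars SDs over 50 libraries, and dotted lines part 4 sets of 28 or 29. The sets nearest the joining segments hold 31.1% and 33.0% of the level, against 17.1% and 18.8% in the others.

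Some alpha genes belong to T cells with an almost invariant receptor. Trav1, used by mucosal-associated invariant T cells, had 1 count or more in 38 of 50 libraries, 7.86 counts at most, and a mean use of 0.49%. The Trav11 genes of invariant natural killer T cells were estimated mostly as Trav11d, in 40 libraries, with Trav11 in 5 and Trav11n in 8. Trav11 and Trav11d coding sequences are 99.7% identical, and their summed level with Trav11n was 0.47 ± 0.23 CPM on the sufficient and 0.55 ± 0.29 CPM on the deficient diet (SD, n = 25 each). Trav6d-3 reached 1 count in 11 libraries. In each node the summed level of the Trav11 genes overlapped between the diets. Of 6 tested marker genes of innate-like alpha beta T cells, 1 was higher and 3 lower on the deficient diet over the mean of the nodes. Of all genes 19.2% changed there. The summed level of that list was 195 to 255 CPM in sufficient and 152 to 177 CPM in deficient jejunal libraries, and overlapped in the other nodes. The dual genes, whose names end in dv and which can join to alpha or delta segments, numbered 10 and were counted with alpha.

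Within the gut-draining nodes few members differed. Small intestinal against colonic nodes gave 0 calls on the sufficient diet (edgeR; 9 at an unadjusted p under 0.05, DESeq2 0, limma-voom 0, 3.83% of all genes), with a lowest adjusted p of 0.0508. It also gave 0 on the deficient diet (edgeR; 2 at an unadjusted p under 0.05, DESeq2 0, limma-voom 0, 1.77% of all genes). The gamma constant gene Trgc1 did differ here on the sufficient diet, higher in small intestinal nodes by 0.77 ± 0.18 (SE, adjusted p = 0.00738, edgeR).

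Duodenal nodes exceeded ileal nodes for 2 members on the sufficient diet, where 3.05% of all genes were higher and 8.07% changed in either direction. Trbv13-2 was at 12.5, 12.8, 14.3, 16.5 and 17.2 CPM in duodenal and at 8.27, 8.99, 10.1, 12.2 and 12.7 CPM in ileal libraries. The groups overlapped only where the lowest duodenal library met the highest ileal one. Trbv13-2 rose by 0.49 ± 0.15 and Trav6-5 by 1.25 ± 0.39 (SE, adjusted p = 0.0369 for each, edgeR). Trav6-5 was at 1.14 to 2.31 CPM in duodenal and at 0.208 to 1.18 CPM in ileal libraries. The call of Trbv13-2 was lost without any 1 of the 5 sufficient numbers (adjusted p from 0.0553 to 0.18, edgeR). That of Trav6-5 was lost without sufficient number 1, 3, 4 or 5 or deficient number 3 (adjusted p from 0.0503 to 0.125, edgeR). Neither passed on the CD3 scaling. The 2 members called there were others, named after their values were seen, and both were lower in duodenal nodes: Trbv31 by -0.60 ± 0.20 and Trav9d-4 by -6.04 ± 2.31 (SE, adjusted p = 0.0216 and 0.0432, edgeR). Trav9d-4 had under 1 count in 31 of the 50 libraries and 24.3 counts at most. It ends in the same 60 coding bases as Trav9n-4, so its difference as a single copy is not read as a result. The signs of 58 of 70 members were positive, with a median of 0.32, against 32 of 70 on the CD3 scaling, which moved the median of all genes to -0.34. The receptor complex list had 4 of 11 genes higher, among them Trac by 0.48 ± 0.10. Pancreatic genes, all 12 higher in duodenal nodes, moved with this comparison and their part in it was not tested. Without the libraries rich in pancreatic counts 1 member was called. On the deficient diet 0 members passed (edgeR; 2 at an unadjusted p under 0.05, DESeq2 0, limma-voom 0, 5.60% of all genes).

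The diets were compared over the mean of 5 nodes and node by node. Because every male library was on the sufficient diet, the sex term of the model rests on that diet alone. Over the mean of the nodes 2 members were higher on the deficient diet and 0 lower, where 10.7% of all genes were higher and 19.2% changed. Trav13-1 was at 0.473 to 2.66 CPM with a median of 1.03 in the 25 sufficient libraries and at 0.814 to 2.69 CPM with a median of 1.68 in the 25 deficient ones. The ranges overlapped, and the mean of the deficient libraries was the higher in each of the 5 nodes. Trav13-1 rose by 0.74 ± 0.21 (SE, adjusted p = 0.00814, edgeR), and not past the threshold without sufficient number 1 or 2 (adjusted p = 0.0969 and 0.0652, edgeR). Its coding sequence is 96.4% identical to that of Trav13d-1, so its separate estimate is uncertain.

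Trbv13-1 ran from 4.23 to 12.5 CPM with a median of 7.57 on the sufficient and from 4.99 to 12.2 CPM with a median of 9.15 on the deficient diet. It was the higher in the deficient means of all 4 gut-draining nodes and the lower in inguinal nodes, where the means were 8.93 and 10.98 CPM. Over the mean of the nodes Trbv13-1 rose by 0.34 ± 0.11 (SE, adjusted p = 0.0319, edgeR). Leaving out sufficient number 1 or 2, deficient number 1, 2 or 4, or the libraries low in Gm19220 or those rich in pancreatic counts took its adjusted p to between 0.0553 and 0.309. Without the sex term 12 members were higher. Of the reference genes, Trac rose by 0.22 ± 0.06, Cd3e by 0.25 ± 0.07, Trdc, the delta constant gene, by 0.43 ± 0.11 and Trgc2 by 0.37 ± 0.12, with adjusted p between 0.00411 and 0.0275 (edgeR). Markers of other cells also differed between the diets over the mean of the nodes. Of 10 B cell genes 5 were higher and 1 lower on the deficient diet, of 7 plasma cell genes 4 were higher, of 8 myeloid genes 2 were higher and 3 lower, and of 8 stromal genes 2 were higher. Of 7 genes of natural killer and innate lymphoid cells 3 were higher and 1 lower. Their summed level was 155 to 172 CPM in sufficient and 282 to 414 CPM in deficient ileal libraries, without overlap. Their part in the result was not tested.

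In single nodes the diets differed for 1 member. Trav16 was at 0.144, 0.291, 0.671, 0.875 and 0.989 CPM in sufficient and at 0.923, 1.04, 1.40, 1.63 and 2.51 CPM in deficient duodenal libraries, with an overlap between the highest sufficient and the lowest deficient library. It rose by 1.29 ± 0.41 (SE, adjusted p = 0.0352, edgeR), where 6.19% of all genes were higher and 10.1% changed, and the call was lost in DESeq2 (adjusted p = 0.0574) and without the pancreas-rich libraries (adjusted p = 0.303, edgeR). It was also lost without sufficient number 2 or 4 or deficient number 2, 4 or 5 (adjusted p from 0.0606 to 0.219, edgeR). The coding sequence of Trav16 is 97.7% identical to that of Trav16n, so its separate estimate is uncertain. In jejunal, ileal, colonic and inguinal nodes 0 members passed (edgeR), with 7, 13, 4 and 12 at an unadjusted p under 0.05, where 4.55%, 5.70%, 2.22% and 0.838% of all genes changed. DESeq2 called 1 member in inguinal nodes, Trbv14, and 0 in the others, and limma-voom called 0 in all 4. The signs went opposite ways, with 63 of 70 members positive in ileal nodes, at a median of 0.44, and 56 of 70 negative in inguinal nodes, at a median of -0.28. On the CD3 scaling 48 of 70 were positive in ileal nodes, 9 of 19 among beta members, and 38 of 70 negative in inguinal nodes, and the median of all genes moved to -0.31 and 0.26. The 1 member called on that scaling in ileal nodes, Trav14n-3, was lower on the deficient diet, at -1.10 ± 0.39 (SE, adjusted p = 0.0460, edgeR), and is named after its values were seen. Trac rose by 0.52 ± 0.11 in ileal nodes (SE, adjusted p = 0.00118, edgeR) and differed by -0.05 ± 0.10 in inguinal nodes.

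Gamma and delta members held few counts, at a summed 3.54 ± 1.20 and 1.98 ± 0.74 CPM (SD, n = 50). Gamma use was led by Trgv2 with 41.7%, Trgv1 with 29.5% and Trgv4 with 20.2%, and Trgv6, Trgv5, Trgv7 and Trgv3 held 2.89%, 2.73%, 1.47% and 1.46%. Because the division among Trgv1, Trgv2 and Trgv3 is uncertain, their order is an estimate. Trgv4 marks a gamma delta subset that circulates through lymph nodes, Trgv5 marks the epidermal gamma delta cells, and Trgv7 the intraepithelial cells of the gut. Trgv5 reached 1 count in 16 libraries, Trgv7 in 10 and Trgv3 in 9. Delta use was led by Trdv5 with 42.0% and Trdv2-2 with 27.4%, followed by Trdv1 with 17.5%, Trdv4 with 10.2% and Trdv2-1 with 2.94%, with SDs of 6.61 to 19.4 percentage points between libraries.

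The mean gamma sums, with no adjustment for sex, were higher on the deficient than on the sufficient diet in each node. They were 4.51 ± 0.58 against 2.80 ± 0.89 CPM in ileal nodes, 4.54 ± 0.69 against 2.31 ± 1.27 CPM in colonic nodes, and 4.90 ± 0.75 against 3.03 ± 0.48 CPM in inguinal nodes (SD, n = 5 each). The ranges did not meet in ileal and inguinal nodes, and 1 sufficient colonic library, at 4.37 CPM, lay inside the deficient range. In duodenal and jejunal nodes they overlapped. The sufficient female libraries were at 3.05 and 4.48 CPM in duodenal and at 3.80 and 3.73 CPM in jejunal nodes. The deficient means, all from females, were 3.40 and 3.61 CPM there, so the order did not hold in females alone. In ileal, colonic and inguinal nodes every sufficient female library lay below the deficient mean. In inguinal nodes Trgv2 was at 0.588, 0.997, 1.06, 1.39 and 1.63 CPM on the sufficient and at 1.78, 2.04, 2.40, 2.63 and 2.67 CPM on the deficient diet, and the groups did not overlap. The sum of Trgv1, Trgv2 and Trgv3, which does not depend on their division, did overlap there, at 1.33 to 3.38 CPM on the sufficient and 2.82 to 4.24 CPM on the deficient diet. The difference of Trgv2, 0.81 ± 0.35 there and 0.88 ± 0.35 in colonic nodes, did not pass the test (SE, adjusted p = 0.334 and 0.202, edgeR), nor did 0.43 ± 0.19 over the mean of the nodes (adjusted p = 0.116, edgeR). These fits carry the sex term, and the sufficient group holds males while the deficient group does not. Without that term Trgv2 was among the 12 members called over the mean of the nodes.

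Markers of gamma delta T cells did not all move with the gamma sums. Of 9 genes of that list tested over the mean of the nodes, 3 were higher on the deficient diet (Scart1, Scart2 and Trdc) and 1 was lower. The summed level of the list was 276 to 359 CPM in sufficient and 291 to 312 CPM in deficient ileal libraries. Only in ileal nodes was the deficient mean the lower. In duodenal libraries the list was at 244 to 268 CPM on the sufficient and 300 to 332 CPM on the deficient diet, without overlap. In jejunal, colonic and inguinal nodes the ranges overlapped and the deficient mean was the higher. Scart1 (Cd163l1), a scavenger receptor family gene, was at 1.88 to 5.53 CPM in sufficient and 13.1 to 25.2 CPM in deficient gut-draining libraries, and at 9.13 to 17.2 and 26.4 to 56.8 CPM in inguinal ones. Its rise was 2.35 ± 0.15 (SE, adjusted p = 1.06e-16, edgeR). Scart2 (5830411N06Rik), of the same family, was at 2.57 to 8.69 and 25.5 to 40.4 CPM in gut-draining libraries and at 18.5 to 33.3 and 50.1 to 80.6 CPM in inguinal ones, a rise of 2.55 ± 0.14 (SE) that also passed the test. Within the gut-draining and within the inguinal libraries the diets did not overlap for either gene. The summed natural killer and innate lymphoid genes were at 184 to 237 against 283 to 357 CPM in colonic nodes and at 253 to 316 against 252 to 409 CPM in inguinal nodes. The part of these cells in the gamma and delta sums was not tested.

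Delta sums were 2.34 ± 0.77 CPM on the deficient and 1.61 ± 0.49 CPM on the sufficient diet (SD, n = 25 each). Trdv5 was at 0, 0.249, 0.353, 0.663 and 0.735 CPM in sufficient ileal and at 1.04, 1.24, 1.49, 1.75 and 2.05 CPM in deficient ileal libraries, without overlap. Its difference of 1.58 ± 0.53 missed the threshold (SE, adjusted p = 0.0717, edgeR). The constant gene Trdc passed in ileal nodes, with a rise of 0.78 ± 0.20 (SE, adjusted p = 0.00996, edgeR).

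Trgv6 and Trdv4 form the receptor of a gamma delta subset known from skin, uterus and other non-lymphoid tissues. Trgv6 held 38.9 estimated counts in all 50 libraries, and the 5 deficient inguinal libraries held 5.10, 2.95, 3.05, 5.00 and 0 of them. Those values were higher than the highest count in any other library, 1.99, in 4 of the 5. Trdv4 was at 0 in all 5 sufficient colonic libraries, where a count of 0 allows up to 3 counts per library, and held 2.01 counts in 1 deficient colonic library. In inguinal libraries it held 0.964, 2.00, 2.93, 5.94 and 7.04 counts on the sufficient and 1.01, 1.97, 2.02, 5.10 and 7.98 counts on the deficient diet. Neither gene passed the low-count filter, so these counts are a description.

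**Figure D5:**
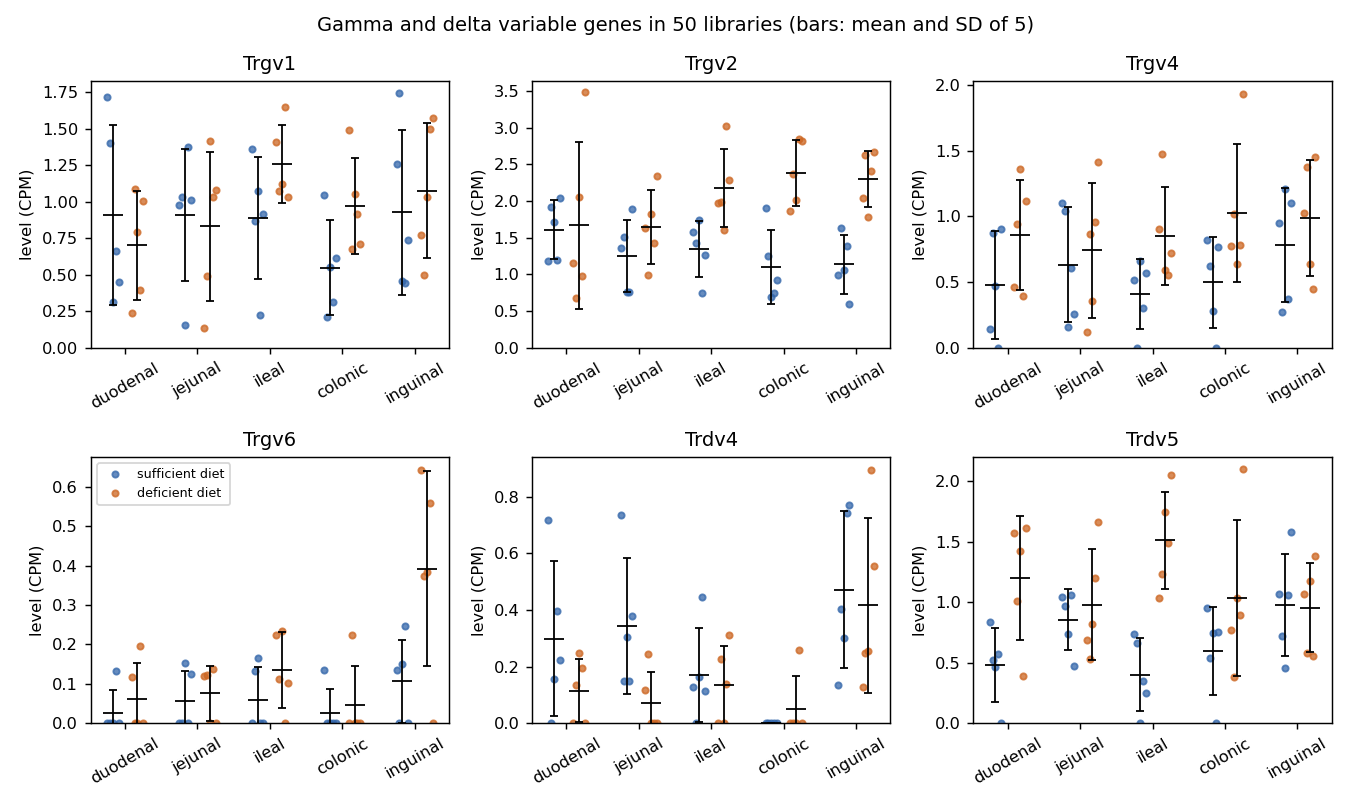
Level (CPM) of Trgv1, Trgv2, Trgv4, Trgv6, Trdv4 and Trdv5 in each library, by lymph node and diet; points are libraries, bars the mean and SD of 5. Trgv2 in inguinal nodes does not overlap between diets (0.588 to 1.63 against 1.78 to 2.67 CPM; the sum of Trgv1, Trgv2 and Trgv3 does), Trgv6 is highest in 4 deficient inguinal libraries, and Trdv4 is at 0 in the sufficient colonic libraries.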

How the data were processed

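RNA was extracted with TRIzol and poly(A) libraries were made, per the labels' protocols. The authors deposited estimated counts per gene in 1 table; per the submitters' processing notes, tools were edgeR, kallisto and limma and builds were mm10 and GRCm39, with roles and versions not given in the sources used here. Entries without a gene name held 0.231% to 0.491% of counts. Estimated counts were rounded. Genes passing edgeR's filterByExpr (18387) were scaled with TMM. The quasi-likelihood test of edgeR 4.0.16 (R 4.3.3) was run in 1 model of all 50 libraries whose terms were the 10 groups and sex. Benjamini-Hochberg adjustment ran over all genes tested, with a threshold of 0.05. Standard errors derive from the fold change and the F statistic. Members, gene lists and comparisons were chosen with earlier results of these data known. Genes were named by a rule: in each comparison up to 10 called members per direction with the largest change, the 6 alpha and 6 beta members with the highest level, every gamma and delta member, a set of further members known from particular T cells and the constant genes. On counts simulated for sufficient gut-draining against inguinal nodes, over the members' range of 0.516 to 13.5 CPM, 40 of 100 genes changed by 1 log2 unit and 8 of 100 changed by 0.5 were called among 18027 genes, and 14.3% of 56 calls were unchanged genes. In the data 3108 genes were called in that comparison. The Benjamini-Hochberg cutoff was therefore stricter in the simulation, and its recovery cannot be carried over to the data. Sequences are from GENCODE M21. Alternatives included DESeq2 1.42.0 and limma-voom (limma 3.58.1). Of the gamma delta marker list, the result of 1 gene is not reported here.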

Additional observations from a re-analysis of the deposited data

Results flagged for a closer look

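In 10 of 230 sets of 5 libraries that were examined, 1 library lay far from the other 4, where chance alone marks about 1 in 20. The summed delta level of sufficient colonic library 1 was 2.39 CPM, against 0.844 to 0.986 in the others. On the low side, Trbv1 was at 9.42 CPM in sufficient inguinal library 4, against 12.5 to 13.7, and Trbv13-1 at 5.42 CPM in deficient inguinal library 3, against 9.13 to 10.6. Trbv13-3 was at 3.98 CPM in sufficient colonic library 5, against 7.21 to 8.18, and Trbv16 at 3.89 CPM in sufficient ileal library 2, against 8.09 to 9.23. Trbv19 was at 5.36 CPM in deficient ileal library 4, against 6.11 to 6.37. On the high side were 4 alpha genes. Trav16n was at 2.34 CPM in deficient ileal library 3, against 0.753 to 1.19, and Trav9-2 at 2.46 CPM in deficient jejunal library 5, against 1.65 to 1.81. Trav6-5 was at 2.49 CPM in deficient inguinal library 4, against 1.16 to 1.41, and Trav12-2 at 2.26 CPM in deficient inguinal library 2, against 1.26 to 1.53. These values were not tested further.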

How the results depend on the processing

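Numbers of called members are given by comparison. For sufficient gut-draining against inguinal nodes the 17 became 10 with no low-count filter, 7 in females only and 2 when scaled to the CD3 chains, where Trbv19 reversed to 0.01044, and 9 to 19 when single numbers were left out. On the deficient diet the 0 became 1 with no filter and 1 with limma-voom, and 0 to 1 with numbers left out. Small intestinal against colonic nodes gave 1 without pancreas-rich libraries and 0 to 1 with numbers left out on the sufficient diet, and 1 with no filter on the deficient diet. For sufficient duodenal against ileal nodes the 2 became 0 with no filter, 0 in females, 0 with only the groups compared, 1 without the libraries low in Gm19220, 1 without pancreas-rich libraries, and 0 to 4 with numbers left out. For the mean diet effect the 2 became 12 without the sex term, 1 with no filter, without either set of libraries or on the CD3 scaling, and 0 to 4 with numbers left out. In duodenal nodes the 1 became 0 with no filter, DESeq2, females only, the replicate block, the CD3 scaling, only the groups compared and without pancreas-rich libraries, and 0 to 1 with numbers left out. Ileal nodes gave 4 without the sex term, 1 with a CPM filter, in females or on the CD3 scaling, and 0 to 3 with numbers left out. Jejunal nodes gave 0 to 1 with numbers left out, and inguinal nodes 1 with DESeq2 and 0 to 1. The interaction gave 2 with limma-voom, 4 with DESeq2, 3 with the replicate block (Trbv13-2, Trbv14 and Trbv12-2), 1 on the CD3 scaling and 0 to 3 with numbers left out. The causes were not tested. With only the groups compared, the mean diet effect and the interaction have the same fit as the main one.

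Libraries of different nodes share numbers, and the labels do not say that a number is a mouse. Same-numbered libraries had a median correlation of deviations of 0.126 on the sufficient diet and 0.21 on the deficient diet. Libraries with other numbers had medians of -0.0262 and -0.0525. Of 50 same-numbered pairs on each diet, 25 and 38 exceeded 0.1, short of every pair, so the numbers were not taken as pairs. Of 25 libraries on each diet, 10 and 19 were closest to their own number. Sex was the same in all nodes of a number. Shared mice are therefore not excluded. If numbers are mice, p-values of the diet comparison over the mean of the nodes may be too small. With the replicate block the sufficient gut-draining comparison called 19 members. Summing alpha copies with equal coding sequence, an alternative chosen after seeing the data, gave 18. Depth limits the 79 members whose counts were too low to be tested.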
